A study of Bos taurus with 27 samples.

Results

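Keratins are the intermediate filament proteins of epithelial cells, and their probes were read in the rumen epithelium (RE) of fattening cattle. The members are the probes, other than control probes, whose gene name on the array begins with KRT and a digit. There were 47 of them among 15008 probes, each with a different gene name, and 18 were well above background on all 27 arrays. The RE is the stratified squamous lining of the rumen, through which fermentation acids are taken up. Biopsies came from 9 Japanese Black cattle, each sampled 3 times, at ages of 14 (early stage of fattening), 21 (middle) and 29 months (late). All were castrated, fistulated animals on a high-grain diet, and the tissue was scratched from the ventral sac with a biopsy punch. Each biopsy was hybridized to a 1-color bovine oligonucleotide microarray, which gave 9 arrays per stage. Because the samples are bulk tissue, fewer keratin-producing cells and less keratin RNA per cell cannot be told apart.

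A keratin filament is built from pairs of a type I and a type II chain, and the pair a cell makes marks its place in the epithelium. Cells of the basal layer make KRT5 with KRT14, and KRT15 beside them. Cells that leave this layer switch to suprabasal keratins such as KRT10, KRT4 and KRT13. KRT6, KRT16 and KRT17 are known from wounded, inflamed or fast-renewing epithelium and from the linings of the mouth and other upper digestive tract, and KRT8, KRT18 and KRT19 from simple epithelia. The members were grouped by these roles, and keratins of hair and the hair follicle formed a further group.

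The probes named KRT4 and KRT6A, put forward as markers of this epithelium, behaved differently. KRT6A was well above background on all 27 arrays, whereas KRT4 was not well above background on any array. Its processed signal ranged from 1.02 to 6.86 in linear units. KRT1, KRT13 and KRT16 had no probe of that name. All 3 basal keratins (KRT5, KRT14 and KRT15) and all 4 stress keratins on the array (KRT6A, KRT6B, KRT6C and KRT17) were measured on every array. Of 10 suprabasal keratins, KRT3, KRT10 and KRT78 were measured on every array and KRT80 on every early and late array but on no middle array. Of 6 keratins of simple epithelium, KRT8 and KRT19 were measured throughout and KRT23 on 9, 2 and 9 arrays of the 3 stages. Of 23 keratins of hair and follicle, KRT35, KRT75, KRT79, KRT81, KRT85 and KRT86 were measured throughout. KRT222, which fits none of these roles, was on no array.

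**Figure D1:**
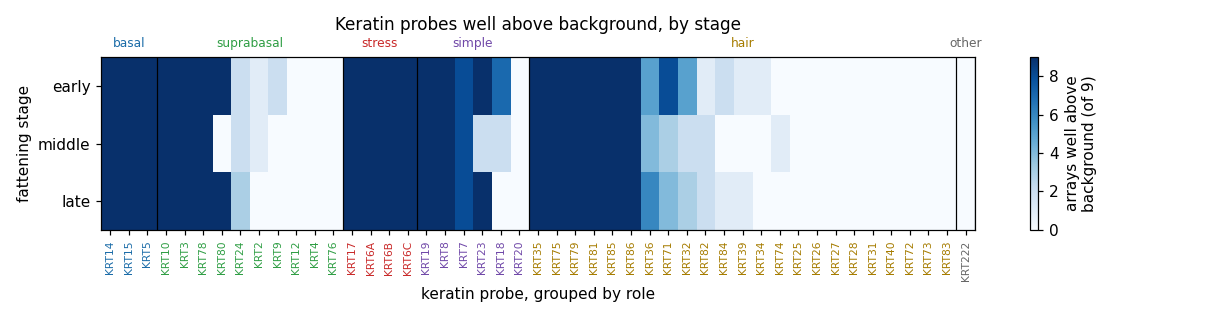
Number of arrays (of 9) on which each of the 47 keratin probes was well above background, shown as color, with stages in rows and probes in columns grouped by role. Basal and stress keratins are filled at every stage, KRT80 is empty at the middle stage, and 14 probes, KRT4 among them, are empty throughout.

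The remaining members were measured on part of the arrays or on none. Of the 47, 14 were not well above background on any array and 13 were so on 1 to 24 arrays without covering any stage. KRT7 was measured on 8 arrays of each stage, KRT18 on 7, 2 and 0, KRT36 on 5, 4 and 6, KRT71 on 8, 3 and 4, and KRT32 on 5, 2 and 3. KRT2, KRT9, KRT24, KRT34, KRT39, KRT74, KRT82 and KRT84 were measured on at most 3 arrays of a stage. Through their accessions, 42 of the 47 probes matched their own symbol in the RefSeq gene table of assembly ARS-UCD2.0.

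Some probes lie in stretches that related keratins share, which limits how far they separate them. The KRT17 probe also lists a KRT14 transcript among its accessions, and the probes of both genes overlap in 42 bases with 7 mismatches. The sequences of that basal and stress pair are shown 5′ to 3′ with the mismatched bases in capitals, followed by those of KRT15 and KRT10, which stand for the basal and suprabasal layers, and of KRT4, which gave no signal.
KRT14: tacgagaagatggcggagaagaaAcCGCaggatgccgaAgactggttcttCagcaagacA
KRT17: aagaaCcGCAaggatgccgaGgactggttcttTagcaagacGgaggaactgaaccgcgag
KRT15: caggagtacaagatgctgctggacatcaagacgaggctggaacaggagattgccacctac
KRT10: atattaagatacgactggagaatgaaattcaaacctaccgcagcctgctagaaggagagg
KRT4: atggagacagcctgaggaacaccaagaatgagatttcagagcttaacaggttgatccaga
In KRT14 the overlap runs from base 19 to 60 of the probe, and in KRT17 from base 1 to 42. The KRT6B and KRT6C probes overlap in 44 bases with 7 mismatches. The KRT86 probe also lists KRT81, KRT83 and KRT85, so its signal may not come from KRT86 alone. Hybridization of a transcript to the probe of its neighbor was not tested.

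Middle-stage arrays were the dimmest, with a median processed signal of 8.05 to 28.1 against 34.5 to 47.5 at the early and 31.4 to 45.9 at the late stage, and the middle-stage array of animal 4 was the lowest. Levels are given as log2 processed signal minus the median of the array, so a level of 10 is that many doublings above the median probe. The stages were compared within animals in 1 limma model over all probes. The term differentially expressed gene (DEG) is used for probes whose adjusted *P* was under 0.05. Changes from early to middle are those of the first period, from middle to late those of the second, and from early to late those of the total period. Taken over every probe on the array, the median change (log2) was 0.32, −0.27 and 0.03, and that of the 6797 probes measured on all arrays was 0.08, 0.10 and 0.14. Setting the changes against either median turned the sign of no keratin call among the 18 measured on all arrays. Whether the calls themselves held was not tested. The first-period rises of KRT3 and KRT85 (0.33 each) nearly equal the median of every probe, and that of KRT79 (0.41) is little above it. Most slides held 1 stage, with slide 2 alone holding both early and middle arrays, and the slide and the stage can largely not be told apart.

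During the first period 11 of the 18 keratins measured on all arrays were DEGs, 7 lower and 4 higher at the middle stage. This is 61.1% of them, near the 61.8% of all probes measured on all arrays (34.9% higher, 26.9% lower), so their number of calls is near the background. During the second period 7 of 18 (38.9%) were DEGs, 3 higher and 4 lower, where 68.2% of such probes were called (37.8% higher, 30.4% lower). For the total period 4 of 18 (22.2%) were DEGs, 1 higher and 3 lower, beside a background of 25.9% (18% higher, 7.94% lower). The medians of the 18 were 0.03, −0.01 and −0.05.

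With the dim members included, 37 of 47 keratins were DEGs in the first period (28 higher, 9 lower), 35 in the second (6 higher, 29 lower) and 7 in the total period (2 higher, 5 lower). Among all 15008 probes 66.5% were DEGs in the first period (45.3% higher, 21.3% lower), 71.5% in the second (27% higher, 44.6% lower) and 20.1% in the total period (11.2% higher, 8.93% lower). At a change of at least 2-fold 24, 29 and 5 of the 47 keratins were DEGs, where 31.4%, 39% and 4.11% of all probes were. Of those, only 3 in each period were measured on all arrays, namely KRT6A, KRT14 and KRT19 in the first, KRT6A, KRT19 and KRT85 in the second, and KRT14, KRT85 and KRT86 in the total period.

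KRT14, the type I partner chain of basal cells, fell in the first period and stayed low. Its level ran from 7.85 to 8.41 at the early stage (median 8.16), from 6.43 to 7.94 at the middle (6.99) and from 6.60 to 7.46 at the late stage (7.10). All late values lay below all early values, and only the highest middle value, of animal 5, reached the early range. Its first-period change was −1.12 (log2, SE 0.15, limma adjusted *P* = 6.71e-06), followed by 0.05 (adjusted *P* = 0.757), which left the late stage 1.07 below the early one (log2 fold change −1.07, adjusted *P* = 6.12e-05). KRT14 was lower at both later stages in 9 of 9 cattle. A random block for the slide gave −0.98 for the total period with an adjusted *P* of 0.086, and normexp background correction gave −0.82 with 0.157.

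KRT5, the type II chain that pairs with KRT14, had smaller changes. Levels ran from 8.66 to 9.95 at the early stage (median 9.15), from 7.19 to 9.98 at the middle (8.53) and from 8.41 to 9.17 at the late stage (8.79). The middle-stage values spread over the whole range of the others, with the lowest in animal 4 and the highest in animal 5. Its first-period change of −0.56 (SE 0.21, limma adjusted *P* = 0.0285, lower in 7 of 9 cattle) was no longer called without animal 1, 3, 4 or 8, with adjusted *P* values of 0.0923, 0.0624, 0.0982 and 0.0843. The second-period value was 0.11 (adjusted *P* = 0.648). From early to late it was −0.44 (adjusted *P* = 0.158, lower in 8 of 9 cattle), and with only those 2 stages in the fit its adjusted *P* was 0.0292.

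KRT15, a second type I keratin of basal cells, was not a DEG in any period under the main scaling. Levels of KRT15 ran from 8.12 to 9.39 at the early stage (median 8.89), from 8.32 to 9.52 at the middle (8.84) and from 8.19 to 9.18 at the late stage (8.62). The 3 ranges overlapped almost fully. The log2 fold changes were −0.002, −0.27 and −0.27, with limma adjusted *P* values of 0.992, 0.136 and 0.253. Without animal 9, whose early value was the lowest, the second-period and total-period changes of KRT15 were −0.32 (adjusted *P* = 0.0265) and −0.43 (adjusted *P* = 0.0193). Other scalings also gave KRT15 calls, with −0.45 (adjusted *P* = 0.0125) in the second period under 75th percentile scaling and −0.43 (adjusted *P* = 0.0397) over the total period under cyclic loess, whereas normexp background correction gave 0.37 (adjusted *P* = 0.38) in the second.

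Among stress keratins, KRT6A had the widest swing. Its level ran from 10.69 to 11.16 at the early stage (median 10.94), from 6.76 to 11.004 at the middle (9.97) and from 11.10 to 11.48 at the late stage (11.25). Every late value lay above every middle value, and the middle-stage array of animal 4 was far below the rest. KRT6A fell by 1.28 from early to middle (SE 0.29, limma adjusted *P* = 0.000939, lower in 8 of 9 cattle) and rose by 1.63 from middle to late (SE 0.29, adjusted *P* = 7.18e-05, higher in 9 of 9). Without animal 4 these changes were −0.95 (adjusted *P* = 0.000151) and 1.28 (adjusted *P* = 4.56e-06). Over the total period the value was 0.35 (SE 0.29, adjusted *P* = 0.444), higher in 9 of 9 cattle, and with only the early and late stages in the fit the same change had an adjusted *P* of 0.00463.

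KRT17, a type I keratin of the same group, moved in the same 2 directions. KRT17 levels ran from 9.30 to 9.77 at the early stage (median 9.55), from 8.10 to 9.23 at the middle (8.69) and from 9.07 to 9.40 at the late stage (9.31). No middle value reached the early range, and the late values overlapped both others. It fell by 0.91 to the middle stage in 9 of 9 cattle (SE 0.14, limma adjusted *P* = 1.86e-05) and rose by 0.61 to the late stage in 9 of 9 (SE 0.14, adjusted *P* = 0.000581). From early to late the value was −0.30 (adjusted *P* = 0.127, lower in 8 of 9), and 75th percentile scaling gave −0.42 (adjusted *P* = 0.0341). A random block for the slide raised the adjusted *P* of the second period to 0.0565.

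KRT6B and KRT6C, the other type II stress keratins on the array, did not share the swing of KRT6A to the same size. KRT6B ran from 10.82 to 11.46 at the early stage (median 11.12), from 9.45 to 11.86 at the middle (11.44) and from 10.82 to 11.46 at the late stage (11.20), with all but 1 middle value, that of animal 4, at 11.2 or above. Its changes were 0.09, −0.08 and 0.01, with limma adjusted *P* values of 0.667, 0.697 and 0.981. Without animal 4 the first 2 were 0.27 (adjusted *P* = 0.0417) and −0.27 (adjusted *P* = 0.0361), but under quantile normalization the first-period change was −0.48 (adjusted *P* = 0.0303), so its direction is not settled. KRT6C had a median of 10.46, 10.14 and 10.42 at the 3 stages and fell by 0.65 in the first period (SE 0.26, adjusted *P* = 0.0347, lower in 8 of 9 cattle). That change was −0.35 without animal 4 (adjusted *P* = 0.0399) and lost its call without animal 2, 3, 7, 8 or 9, with adjusted *P* values from 0.0503 to 0.0652. The second-period change of KRT6C was 0.57 (adjusted *P* = 0.0577), and 0.26 without animal 4. It was called without animal 5 (0.72, adjusted *P* = 0.0236), under quantile normalization (0.72, adjusted *P* = 0.0237), under cyclic loess (0.62, adjusted *P* = 0.0407) and after normexp background correction (1.25, adjusted *P* = 0.0136).

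Suprabasal keratins gave 3 different pictures. KRT10, the type I keratin of keratinizing cells above the basal layer, ran from 0.90 to 1.99 at the early stage (median 1.33), from 0.69 to 1.98 at the middle (1.38) and from 0.75 to 2.40 at the late stage (1.23). Its ranges overlapped and its changes were 0.06, −0.08 and −0.02, with limma adjusted *P* values of 0.811, 0.723 and 0.959. Without animal 9, whose late value was the highest, the second-period change was −0.30 (adjusted *P* = 0.0421).

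KRT78, a type II keratin of stratified epithelium, fell by 0.93 (log2, SE 0.31, limma adjusted *P* = 0.0127, lower in 7 of 9 cattle) in the first period and rose by 0.86 in the second (SE 0.31, adjusted *P* = 0.0177, higher in 8 of 9). Its level ran from 0.69 to 2.45 at the early stage (median 1.62), from −0.87 to 2.37 at the middle (0.69) and from 1.27 to 2.08 at the late stage (1.56). Middle-stage values overlapped those of both other stages and reached lower than either, with the lowest in animal 6 and the highest in animal 4. The second-period call was lost without animal 6 (0.66, adjusted *P* = 0.0598), under 75th percentile scaling (0.67, adjusted *P* = 0.0706) and under quantile normalization (0.74, adjusted *P* = 0.0714).

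KRT3, a type II keratin best known from the cornea, was higher at the middle stage. Its median level was 2.05, 2.28 and 1.93, and the ranges overlapped. It rose by 0.33 (log2, SE 0.11, limma adjusted *P* = 0.012, higher in 8 of 9 cattle) in the first period and fell by 0.36 in the second (adjusted *P* = 0.00571, lower in 9 of 9), but the sign was opposite after normexp background correction, with −0.02 and 0.09. The rise was about as large as the median change of all probes.

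KRT80, a type II keratin of cells in late differentiation, did not stand above background at the middle stage. It was at least 1.31-fold lower at the middle than at the early stage and at the late stage at least 1.77-fold above the middle. For each such bound, the dimmer stage was given, array by array, the smallest signal that still counted as above background (or that of the probe, where higher). The measured means were −1.24, −3.15 and −0.80. Their changes of −1.91 and 2.35 had limma adjusted *P* values of 2.2e-05 and 1.22e-06, while the bounds were not tested. After normexp background correction neither change of KRT80 was called, with −0.017 (adjusted *P* = 0.804) and 0.092 (adjusted *P* = 0.152). Between the early and late stages, where it was measured on all arrays, the change was 0.44 (SE 0.29, adjusted *P* = 0.317).

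**Figure D2:**
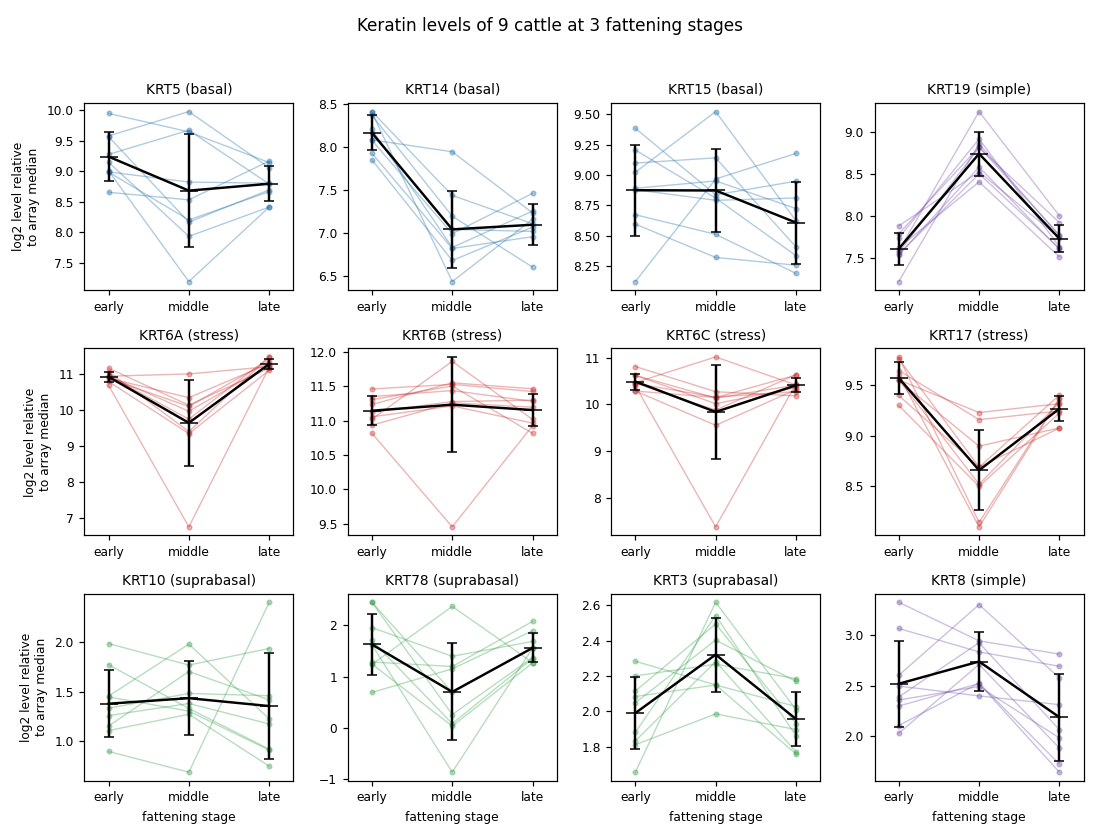
Log2 level relative to the array median of 12 keratins at the early, middle and late stages, 1 panel each, with points and thin lines for each of the 9 cattle and black bars for the mean ± SD. KRT6A and KRT17 dip at the middle stage, KRT14 drops by the middle stage and stays low, KRT19 peaks at the middle stage, and 1 line, animal 4, drops far below the others in KRT6A, KRT6B and KRT6C.

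KRT19, a small type I keratin of simple epithelia that is also found in basal cells of some stratified epithelia, separated the middle stage from both others. Its level ran from 7.22 to 7.88 at the early stage (median 7.59), from 8.41 to 9.25 at the middle (8.82) and from 7.51 to 8.00 at the late stage (7.74). All 9 middle levels lay above all levels of both other stages. The processed signal itself ran from 6394 to 8997, from 3753 to 9816 and from 7027 to 10355, and these ranges overlapped. The separation is thus one of levels relative to the array median, which was lowest at the middle stage. The KRT19 level rose by 1.14 (log2, SE 0.11, limma adjusted *P* = 1.34e-07, higher in 9 of 9 cattle) in the first period and fell by 1.02 in the second (SE 0.11, adjusted *P* = 1.8e-07, lower in 9 of 9). Over the total period the value was 0.12 (adjusted *P* = 0.48). After normexp background correction the second-period change was −0.32 with an adjusted *P* of 0.297.

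KRT8, the type II chain of simple epithelia, ran from 2.03 to 3.32 at the early stage (median 2.39), from 2.40 to 3.30 at the middle (2.71) and from 1.65 to 2.81 at the late stage (2.07). The ranges overlapped, while within animals the late value was below both others in 9 of 9 cattle. The second-period change was −0.55 (SE 0.12, limma adjusted *P* = 0.000449), though 0.03 after normexp background correction, and the first-period and total-period values were 0.22 (adjusted *P* = 0.112) and −0.33 (adjusted *P* = 0.058). Without animal 4 the total-period value of KRT8 was −0.37 (adjusted *P* = 0.0394).

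KRT18, the partner of KRT8, was measured on no late array. Late levels were below the early-stage mean by at least 1.24-fold, with 7 of 9 early arrays well above background. The limma adjusted *P* of 0.00206 belongs to the measured change of −1.44, and the bound was not tested. No fold is given against the middle stage, where 2 of 9 arrays were well above background. KRT23, a type I keratin, was measured on 2 middle arrays, and its measured level had a median of −1.21, −2.64 and −1.47. KRT7, a type II keratin of ducts and simple linings, was measured on 8 arrays of each stage, and its median level was −1.40, 0.44 and −1.18. Its first-period value of 1.36 and second-period value of −1.54 (limma adjusted *P* = 0.000683 and 0.000163) are close to the median values of 1.33 and −1.39 of the 2042 probes that were not well above background on any array.

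The same apparent pattern held for the 27 members that covered no stage. All 27 had a positive first-period value and 26 a negative second-period value, and 24 and 26 of them were called. Among all probes on no array 97.7% and 97.8% were called. That share matches the 14 members on no array, whereas 13 of the 27 were measured on some arrays, KRT7 on 8 of each stage. How far these 13 follow the probes at background was not tested. No direction is given for any of the 27 in either period.

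KRT36, a type I hair keratin, was measured in some cattle and not in others. It was well above background at all 3 stages in 4 cattle (1, 2, 3 and 7) and at no stage in 3 (5, 8 and 9). In animal 1 its processed signal was 49.98, 85.8 and 919 in the order of the stages, in animal 7 it was 107, 15.8 and 218, and in animal 9 it was 2.36, 3.86 and 4.90. Its total-period value was 1.71 (SE 0.46, limma adjusted *P* = 0.0121), higher in 8 of 9 cattle, with 5 early and 6 late arrays measured. Those 8 include cattle 5 and 9, where it was at background at every stage, so the value mixes signal with background.

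Of the 6 probes named for hair and follicle keratins that were measured throughout, KRT85 and KRT86 ended lower. KRT85, a type II hair keratin, ran from 1.41 to 2.00 at the early stage (median 1.63), from 1.54 to 2.57 at the middle (1.93) and from 0.30 to 1.05 at the late stage (0.41). All late values lay below all values of both other stages. It fell by 1.44 in the second period (SE 0.12, limma adjusted *P* = 1.08e-08) and by 1.11 over the total period (adjusted *P* = 2.95e-06), in 9 of 9 cattle each. After normexp background correction these falls of KRT85 were smaller, at −0.38 (adjusted *P* = 0.000602) and −0.46 (adjusted *P* = 0.00127). Its first-period rise of 0.33 (adjusted *P* = 0.0222) was about as large as the median change of all probes, became −0.08 after normexp background correction and lost its call without animal 3 (adjusted *P* = 0.059).

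KRT86, whose probe lists 3 further hair keratins, ran from 4.47 to 6.10 at the early stage (median 4.85), from 3.28 to 5.59 at the middle (3.98) and from 3.37 to 4.46 at the late stage (3.88). No late value reached the early range. It fell by 0.86 (log2, SE 0.20, limma adjusted *P* = 0.000908, lower in 8 of 9 cattle) in the first period and by 1.17 over the total period (adjusted *P* = 0.000377, lower in 9 of 9). A random block for the slide gave −0.65 (adjusted *P* = 0.0851) and −0.95 (adjusted *P* = 0.237), and normexp background correction gave −0.86 for the total period (adjusted *P* = 0.165).

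Calls of the other 4 depended on the processing. KRT79, a keratin of sebaceous and follicle openings, had medians of 5.37, 5.61 and 5.52, and its first-period rise of 0.41 (limma adjusted *P* = 0.0469) was −0.20 after normexp background correction and lost its call without each of cattle 1, 2, 3, 4, 5, 7 and 9, with adjusted *P* values from 0.0641 to 0.139. KRT81 had medians of 5.15, 5.34 and 5.48, and its total-period rise of 0.29 (adjusted *P* = 0.0407, higher in 9 of 9 cattle) lost its call without each animal but animal 2, with adjusted *P* values from 0.0514 to 0.0983. That call was also lost under 75th percentile scaling (adjusted *P* = 0.253), quantile normalization (0.37), cyclic loess (0.415) and normexp background correction (0.29). With a random block for the slide its adjusted *P* was 0.586. KRT35 (medians 3.07, 3.38 and 3.48) and KRT75 (2.70, 2.56 and 2.65) were not DEGs in any period under the main scaling. After normexp background correction KRT35 (0.80, adjusted *P* = 0.00581), KRT75 (0.53, adjusted *P* = 0.0058) and KRT81 (0.83, adjusted *P* = 0.00441) were called higher in the second period.

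**Figure D3:**
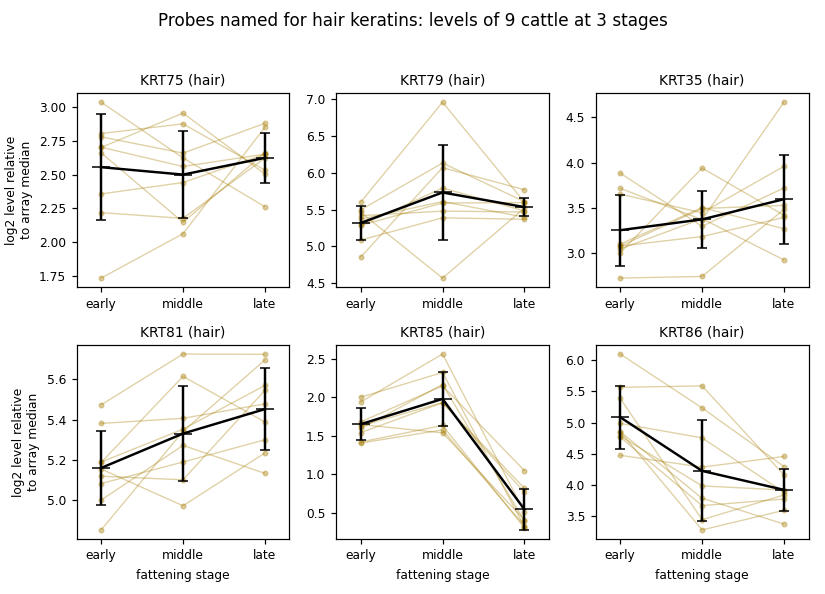
Log2 level relative to the array median of the 6 hair and follicle keratins measured on all arrays, with points and thin lines for each of the 9 cattle and black bars for the mean ± SD at each stage. KRT85 drops between the middle and late stages in every animal, KRT86 is lower at the late than at the early stage in every animal, and the other panels overlap between stages.

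**Figure D4:**
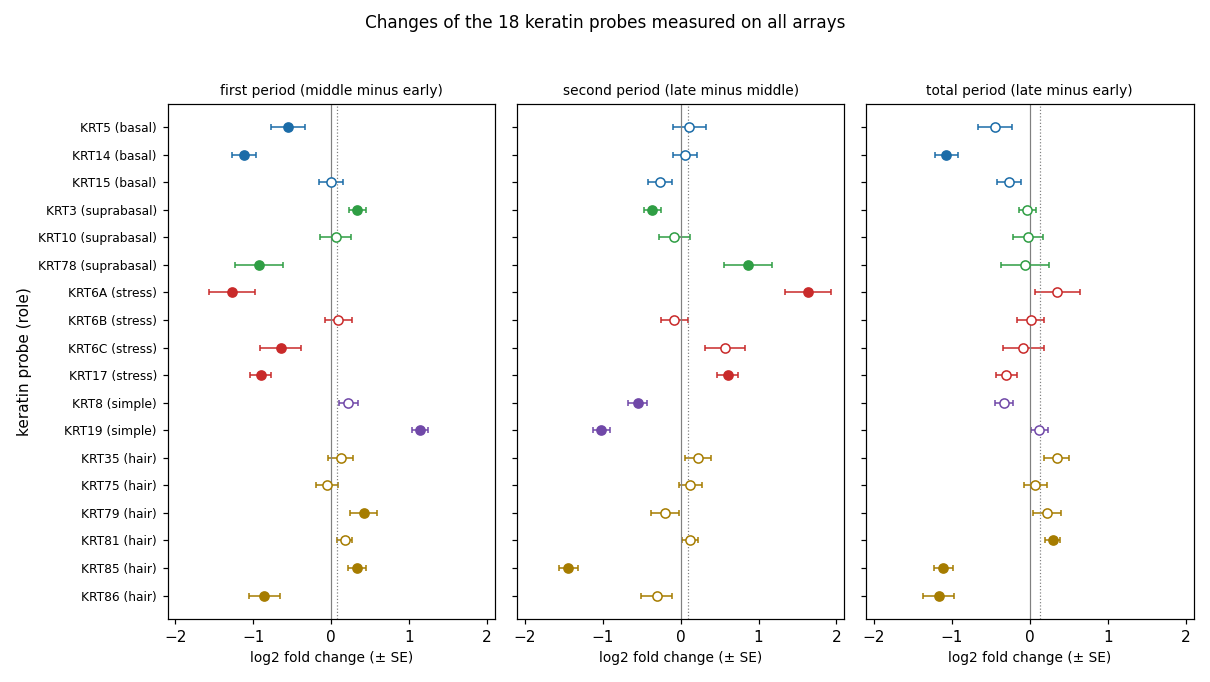
Log2 fold change ± SE from the limma fit of the 18 keratins measured on all arrays, in 3 panels for the 3 periods, colored by role. Filled points have an adjusted *P* below 0.05, the solid line is 0 and the dotted line the median of all probes measured on all arrays. KRT6A and KRT19 lie on opposite sides in both the first and the second period, and KRT14, KRT85 and KRT86 lie near −1 over the total period.

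To contrast the roles within animals, ratios of 2 keratin signals on the same array were followed over the stages. A ratio does not move when an array is scaled by a constant. Of 11 pairs planned, 4 had both probes measured, and the changes were tested by exact sign flips over the 9 cattle with adjustment over the 12 comparisons run. For 9 cattle the lowest exact *P* is 0.0039, which becomes 0.00938 after adjustment.

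The ratio of KRT6A to KRT5, a stress against a basal type II keratin, fell in the first period and rose past its start in the second. Its log2 change was −0.72 ± 0.80 (SD, n = 9, adjusted exact *P* = 0.041, lower in 7 of 9 cattle), then 1.52 ± 0.79 (adjusted exact *P* = 0.00938, higher in 9 of 9), and 0.80 ± 0.43 over the total period (adjusted exact *P* = 0.0134, higher in 8 of 9). Without animal 2, 3, 4, 7 or 9 the first-period change had an exact *P* of 0.055 before adjustment, and it was smallest without animal 4, at −0.55.

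The ratio of KRT17 to KRT14, the type I chains of the same roles, had a first-period change of 0.22 ± 0.30 (SD, n = 9, adjusted exact *P* = 0.0984). It rose by 0.55 ± 0.44 in the second period (adjusted exact *P* = 0.0134, higher in 8 of 9 cattle) and by 0.77 ± 0.27 over the total period (adjusted exact *P* = 0.00938, higher in 9 of 9).

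Within a role the chains did not keep step. KRT5 against KRT14, the basal pair, changed by 0.57 ± 0.79 in the first period (SD, n = 9, adjusted exact *P* = 0.0938) and 0.06 ± 0.47 in the second (adjusted exact *P* = 0.719), and rose by 0.63 ± 0.43 over the total period (adjusted exact *P* = 0.00938, higher in 9 of 9 cattle). KRT6A against KRT17 changed by −0.37 ± 1.095 in the first period (adjusted exact *P* = 0.477), where animal 4 alone had −3.13. The KRT6A to KRT17 ratio rose by 1.03 ± 1.07 in the second period and by 0.66 ± 0.20 over the total period (adjusted exact *P* = 0.00938 for each, higher in 9 of 9 cattle).

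**Figure D5:**
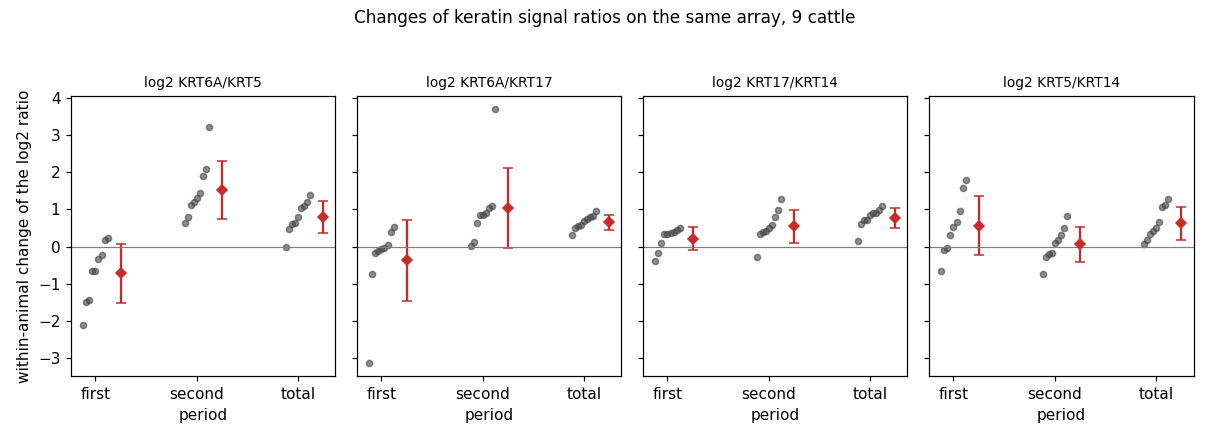
Within-animal change of the log2 ratio of 2 keratin probes on the same array for 4 pairs, with 1 point per animal sorted by size in each period and red diamonds for the mean ± SD (n = 9). All 9 points of KRT6A/KRT5 and of KRT6A/KRT17 are above 0 in the second period, and all 9 of KRT17/KRT14, KRT5/KRT14 and KRT6A/KRT17 are above 0 over the total period.

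Further ratios, added after the values were known, are given as descriptions. KRT6A against KRT6B fell by 1.36 ± 0.58 in the first period in 9 of 9 cattle and then rose by 1.71 ± 0.58 in 9 of 9, which left it 0.35 ± 0.12 above its start in 9 of 9. KRT15 against KRT14 changed by 1.12 ± 0.49 in the first period and 0.80 ± 0.53 over the total period, higher in 9 of 9 each. KRT10 against KRT5 changed by 0.61 ± 0.66, −0.19 ± 0.80 and 0.42 ± 0.38, and KRT78 against KRT5 by −0.37 ± 1.94, 0.75 ± 1.57 and 0.38 ± 1.03, with a spread as large as the change or larger in all but the total period of KRT10. KRT19 against KRT5 changed by 1.69 ± 0.98, −1.13 ± 0.82 and 0.57 ± 0.38.

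Averaged over the members measured on all arrays, the 3 basal keratins changed by −0.56 ± 0.45, −0.03 ± 0.48 and −0.59 ± 0.38 in the first, second and total period (log2, SD over 9 cattle). The 4 stress keratins changed by −0.69 ± 0.69, 0.68 ± 0.75 and −0.005 ± 0.20. The 3 suprabasal keratins changed by −0.18 ± 0.52, 0.14 ± 0.42 and −0.04 ± 0.28. Without animal 4 the first and second values were −0.30 and 0.24 for the suprabasal keratins. They were −0.49 and 0.46 for the stress and −0.50 and −0.10 for the basal keratins. The stress minus the basal mean changed by −0.13 ± 0.50 in the first period (higher in 5 of 9 cattle, 0.007 without animal 4). It rose from middle to late in 9 of 9 (0.72 ± 0.49, and 0.57 without animal 4) and from early to late in 8 of 9 (0.59 ± 0.36). The suprabasal minus the basal mean changed by 0.38 ± 0.80 and 0.17 ± 0.65 in the first 2 periods and rose from early to late in 8 of 9 (0.55 ± 0.37). The stress minus the suprabasal mean changed by −0.51 ± 1.06, 0.54 ± 1.05 and 0.04 ± 0.24.

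The slides bear on the first period most. Slide 2 held the early array of animal 9 and the middle arrays of cattle 1 to 7, so within it 1 early array stands against 7 middle arrays of other cattle. There KRT14 differed by −1.03 (SE 0.53), KRT17 by −0.84 (SE 0.45), KRT6A by −1.34 (SE 1.16), KRT78 by −1.85 (SE 0.93) and KRT19 by 1.20 (SE 0.40), none with an adjusted *P* below 0.05. These keep the signs of the whole comparison, whereas KRT5 differed by 0.16 (SE 0.90) and KRT15 by 0.70 (SE 0.45). KRT86 differed by −0.20 (SE 0.82), KRT6C by −0.67 (SE 1.01), KRT3 by 0.18 (SE 0.36), KRT79 by 0.12 (SE 0.40) and KRT85 by 0.02 (SE 0.40). A fixed block for the slide, an estimate that rests on cattle 8 and 9, gave KRT14 −1.09 (SE 0.77), KRT19 1.44 (SE 0.63), KRT6A −1.19 (SE 1.54), KRT78 −2.06 (SE 1.68), KRT17 −0.01 (SE 0.66), KRT86 −0.05 (SE 0.92) and KRT5 0.57 (SE 1.09). Within slide 2 the ratio of KRT6A to KRT5 was lower on 7 of 7 middle arrays than on the early array, with a mean difference of −1.496, and KRT5 to KRT14 was higher on 6 of 7. On the first scan day alone, which held slides 1 and 2, KRT14 (−1.13, adjusted *P* = 0.00204), KRT17 (−0.86, adjusted *P* = 0.00334), KRT19 (1.15, adjusted *P* = 0.000885) and KRT6A (−1.39, adjusted *P* = 0.015) passed the threshold, as did KRT79, KRT85 and KRT86. KRT5 (adjusted *P* = 0.135), KRT6C (0.125), KRT78 (0.114) and KRT3 (0.0545) did not. In the second period KRT6A (1.54, adjusted *P* = 0.0208), KRT19 (−1.01, adjusted *P* = 0.000494) and KRT85 (−1.51, adjusted *P* = 3.79e-05) were called with a random block for the slide. The same block ended the first-period calls of KRT5 (adjusted *P* = 0.339), KRT6C (0.236), KRT78 (0.0662), KRT3 (0.156), KRT79 (0.113) and KRT85 (0.135) and the second-period calls of KRT78 (0.179) and KRT3 (0.178). Slides of the late stage held no other stage, so no within-slide value exists for the second or total period.

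The list of genes that anchor keratin filaments to junctions or bind them also held VIM, DES and BFSP1, which code for other intermediate filament proteins. It had 13 of 16 members on the array, 8 of them, VIM included, measured on all arrays. Of those 8, 3 rose and 1 fell in the first period and 1 rose and 3 fell in the second, where 61.8% and 68.2% of all probes measured on all arrays were called. Over the total period the single DEG among the 13 was DST, where 20.1% of all probes were DEGs. DST, a hemidesmosome linker of basal cells, fell by 0.50 (limma adjusted *P* = 0.00447, measured on 6 of 9 middle arrays). PPL, a linker between filaments and the cornified envelope, fell by 1.52 in the first period (adjusted *P* = 2.2e-07, measured on 8 of 9 middle arrays) and rose by 1.49 in the second (adjusted *P* = 9.84e-08). MACF1, which crosslinks actin and microtubules, rose by 1.00 (adjusted *P* = 0.000469) and fell by 1.27 (adjusted *P* = 3.4e-05).

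Of 27 listed regulators of epithelial keratin genes, 26 had a probe and 18 were measured on all arrays. Of these 18, 5 rose and 5 fell in the first period, 9 rose and 3 fell in the second, and 6 rose and 1 fell over the total period, where 61.8%, 68.2% and 25.9% of all probes measured on all arrays were called. GRHL3, a grainyhead factor of barrier formation, fell by 1.99 in the first period (limma adjusted *P* = 2.59e-07, measured on 7 of 9 middle arrays) and rose by 1.82 in the second (adjusted *P* = 2.7e-07). KLF4, a factor of suprabasal differentiation, fell by 1.67 (adjusted *P* = 1.3e-05) and rose by 2.06 (adjusted *P* = 6.31e-07). Others went the opposite way, among them GRHL2, which rose by 0.58 in the first period (adjusted *P* = 0.00453) and fell by 0.41 in the second (adjusted *P* = 0.0304). The 1 that fell over the total period was SOX2, a factor of progenitor cells (−0.68, adjusted *P* = 0.00182), which like DST is named after its values were seen. SOX2 rose by 0.89 in the first period (adjusted *P* = 2.74e-05) and fell by 1.58 in the second (adjusted *P* = 1.96e-08). JAG1, a Notch ligand measured on 9, 7 and 8 arrays, had a second-period value of −1.68 (adjusted *P* = 1.64e-06), near the −1.39 of probes at background, and no direction is given for it. ZNF750, a regulator of late epidermal differentiation, rose by 0.68 over the total period (adjusted *P* = 0.00705).

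Markers of other cells were followed over the stages as well. Of all probes measured on all arrays, 34.9% rose and 26.9% fell in the first period, and 37.8% rose and 30.4% fell in the second. Summed levels of markers are relative to the array median, which was lowest at the middle stage. The summed level of 3 red blood cell markers ran from 5.28 to 6.08 at the early, from 6.70 to 7.63 at the middle and from 5.48 to 6.49 at the late stage. Their summed processed signal ran from 1667 to 3108, from 1366 to 3198 and from 1831 to 3843, and these ranges overlapped. HBA alone of them was measured on all arrays, while HBB was well above background on 1, 0 and 1 arrays and ALAS2 on 0, 0 and 3. The summed level of 6 smooth muscle markers ran from 6.85 to 8.65, 6.68 to 9.79 and 7.01 to 7.78, with 3 measured on all arrays, of which 2 rose in the first period and 3 fell in the second. That of 6 fibroblast markers ran from 6.46 to 9.55, 6.49 to 10.00 and 6.14 to 8.66, with 5 measured throughout, of which 1 rose and 1 fell in the first period and 1 rose and 3 fell in the second. For 5 endothelial markers it ran from 5.04 to 6.02, 5.46 to 6.57 and 5.51 to 6.205, with 3 measured throughout, of which 1 rose in the first period and 1 fell in the second, and CDH5 was on no array. For 7 leukocyte markers it ran from 4.91 to 5.86, 4.97 to 5.58 and 4.84 to 5.63, with 5 measured throughout, of which 1 rose and 1 fell in the first period and 2 rose and 2 fell in the second, and MS4A1 on 1, 0 and 1 arrays. On the middle-stage array of animal 4, where KRT6A, KRT6B, KRT6C and KRT5 were lowest, the leukocyte sum of 5.58 was the highest of the 9 middle arrays, as were the sums of the linkers (8.56) and the regulators (10.08). The red blood cell sum of 7.41 ranked the second there, the smooth muscle sum of 8.35 and the endothelial sum of 5.98 the fifth, and the fibroblast sum of 8.20 the sixth. All these sums are relative to the array median, which was lowest on that array (8.05). A high rank there is thus not a high signal, and no amount of these cells is read from it. The part of these cells in the keratin values was not tested.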

How the data were processed

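RNA of 27 RE biopsies (9 cattle at 3 stages) was extracted with TRIzol (the extract protocol of the labels names neutrophils and liver, whereas sample names, characteristics and the methods give RE), labeled with cyanine 3 and read on a custom bovine Agilent array. The intensity values deposited by the authors are processed signals of Feature Extraction, linear and background-subtracted (version 9.5 per the labels, 11.0.1.1 per the file headers). The flags for spots well above background, saturated or outlying are as deposited, as is a table of log2 values that served in 1 alternative. Control spots were left out of 15646, leaving 15110, of which 0 were saturated, and no keratin spot was an outlier.

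Analyses used R 4.3.3 with limma 3.58.1. The array median of log2 intensity was subtracted, spots of 1 probe were averaged, outliers were left missing, and 1 model with a mean per stage and an effect per animal was fitted over 15008 probes with Benjamini-Hochberg adjustment. Animals pair the arrays: deviations from stage means had a mean correlation of 0.158 within an animal and −0.020 between cattle. Named are keratins of the main epithelial roles, members measured on all arrays of a stage, and the most changed of each list. Members and lists were chosen with earlier results of these data known. Alternatives were other scalings, normexp background correction (offset 50), a dim-probe filter, the slide as a block, slide 2 or the first scan day alone (added later), no animal block, fits to 2 stages, the methods' t-test, and each animal left out. Arrays have no read depth, so their number and signal over background limit precision.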

Additional observations from a re-analysis of the deposited data

Results flagged for a closer look

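Among 60 groups of 9 arrays (20 keratins at 3 stages), 4 had an end value far from the rest by Dixon's criterion, and chance gives about 1 in 20 such groups. On the middle-stage array of animal 4, KRT6A was at 6.76 with the next value at 9.35, KRT6C at 7.37 with the next at 9.55, and KRT6B at 9.45 with the next at 11.21. These 3 values come from 1 array, the dimmest, and the KRT6B and KRT6C probes overlap in sequence. KRT80 on the early-stage array of animal 1 was at −2.74 with the next value at −1.52.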

How the results depend on the processing

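Of the 47 keratins, 37 were called in the first period (28 higher, 9 lower), 35 in the second (6 higher, 29 lower) and 7 over the total period (2 higher, 5 lower). Among all probes 66.5%, 71.5% and 20.1% were called. No such share is given for the alternatives, so a count that moved is not read as particular to keratins. The counts were 18 (8 higher, 10 lower) and 19 (6 higher, 13 lower) in the first 2 periods under quantile normalization, 11 and 10 under cyclic loess normalization of the 18 keratins measured on all arrays, 13 (4 higher, 9 lower) and 9 (5 higher, 4 lower) without dim probes, where 20 keratins were tested, and 11, 7 and 4 when only the 18 were counted, a choice made after seeing the data. With the slide as a random block 23 were called in the first period and 1 over the total period. Within slide 2 alone and with a fixed slide block, limma called 0 in the first period, with 9 and 11 at an unadjusted *P* below 0.05. Without the animal block 4 were called over the total period, a count that pairing of the arrays thus moved, with 34 and 33 in the other periods. Normexp background correction called 1 over the total period, and a fit with 2 stages 11. The total-period split was 1 higher and 8 lower under 75th percentile scaling and 1 and 5 under quantile normalization. Leaving out each animal in turn gave 30 to 35, 33 to 36 and 5 to 6 calls, and 7 to 9 of the 12 ratio comparisons against 8. For single keratins, 1107 of 1254 values under the alternatives kept their side of the threshold, 85 of them with another sign but no call in either setting. The sign of a called value turned in 10. Under normexp these were KRT79 (−0.20 and 0.85 in the first 2 periods), KRT3 (−0.016 and 0.092), KRT85 (−0.078, first), KRT8 (0.031, second) and KRT23 (−0.011, second). The others were KRT6B under quantile normalization (−0.48, first) and KRT5 within slide 2 (0.16) and with a fixed slide block (0.57). Where no cause is given it was not tested. Signal over background limits all values of the middle stage, and no direction can be read for keratins at background.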
